A study of Bos taurus with 16 samples.

Results

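Endometrium, the lining of the uterus, was compared between day 50 and day 30 after parturition in the same 4 fertile cows. The members are 8 of the 16 arrays of the series, the 4 labelled d50 and the 4 labelled d30, chosen by that label and paired by cow. The other 8 arrays hold the same cows at days 10 and 100. Cows are Bos taurus without a stated treatment, genotype or age, and every group is endometrium taken by uterine biopsy forceps from the uterine horns, and the labels set the groups apart by time alone. The true sampling days were 29, 30, 30 and 30 for the earlier group and 51, 49, 51 and 51 for the later one, in cows 1 to 4. Total RNA of each biopsy was labelled with a single dye and hybridised to an Agilent bovine array. The question was how gene expression in the lining differs between these times. No label read here states the stage of the oestrous cycle at a biopsy.

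After calving the bovine uterus shrinks, sheds and rebuilds its lining and clears debris and bacteria, and ovarian cycles then resume. The lining is a single layer of luminal epithelium, glands and a fibroblast stroma on a wall of smooth muscle. It makes prostaglandin F2 alpha, which ends the life of the corpus luteum, and it responds to oestrogen, progesterone and oxytocin through their receptors. In ruminants it also responds to interferons, which the early embryo secretes and which infected cells make.

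A level is the log2 of a probe's processed signal minus the percentile 75 of its array, and a difference is day 50 minus day 30 on that scale. On the 8 arrays the median processed signal ran from 79.2 to 142 and the share of detected spots, those that the scanner software marks as well above background, from 63.5% to 77.0%, lowest in cow 1 at day 30. Over all probes, which are not independent replicates, r between arrays of a group was 0.927 to 0.963 for day 30 and 0.942 to 0.977 for day 50. The 4 arrays of a cow shared a slide, and day 30 always lay in position 2 and day 50 in position 3, so day and slide position cannot be told apart. The day 30 array of cow 4 stood apart, with the lowest level of the epithelial marker list (-2.28, against -0.54 to 0.34 on the other day 30 arrays) and a weight of 0.28 when limma estimated how well each of the 16 arrays followed the fit. Counts over a gene list are therefore also given without cow 4 where they lead an account. A count of genes with the same direction in all cows cannot fall when a cow is left out. These counts therefore do not test how much rests on cow 4, and the share of all genes in the remaining cows is not given. In whole biopsies, fewer cells of a type and less RNA per cell cannot be told apart. The epithelial defining markers EPCAM and CDH1 were well above background on all 8 arrays, as were the smooth muscle markers ACTA2 and DES, so the biopsies carried signal of both.

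No probe passed limma's test between day 50 and day 30. Of 33174 probes tested, 0 were called higher and 0 lower (0% in each direction) at an adjusted p under 0.05, and the smallest adjusted p was 0.434. With array weights limma called 271 probes higher and 137 lower, and without the day 100 arrays 9 higher and 0 lower. The unadjusted p was under 0.05 for 3096 probes (9.33%), of which 1647 were higher (4.96%) and 1449 lower (4.37%). By gene the unadjusted counts were 657 higher (4.98%) and 588 lower (4.45%), together 1245 (9.43%). The median standard error of a difference was 0.36, and with 4 cows the smallest two-sided exact p that turning the signs of the paired differences can give is 0.125. Genes were therefore ranked by the size of the smallest of the 4 paired differences, among those with the same direction in all 4 cows. This ranking is a description. With 1 probe for each of 13206 genes, 1580 genes stood higher at day 50 in all 4 cows (12%) and 1853 stood lower in all 4 (14%), and of the probes 4026 (12.1%) and 4326 (13%).

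Large differences lay mostly on the higher side. A gene was called consistent where all 4 cows differed in the same direction by at least 1 on the log2 scale, which is 2-fold. Of the probes, 535 were consistent and higher (1.61%) and 131 consistent and lower (0.395%). By gene there were 240 consistent genes higher at day 50 (1.82%) and 56 lower (0.424%). The median fitted difference was 2.50 among the former and -2.36 among the latter, which the choice of members sets in part. All 4 arrays of the time with the lower signal were well above background for 160 of the 240 and for 36 of the 56, and for 23 and 4 genes none of them was. At a smallest difference of 2 there were 41 genes higher and 4 lower, and at 0.5 there were 508 and 221. Over all genes the median difference was -0.03.

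**Figure D1:**
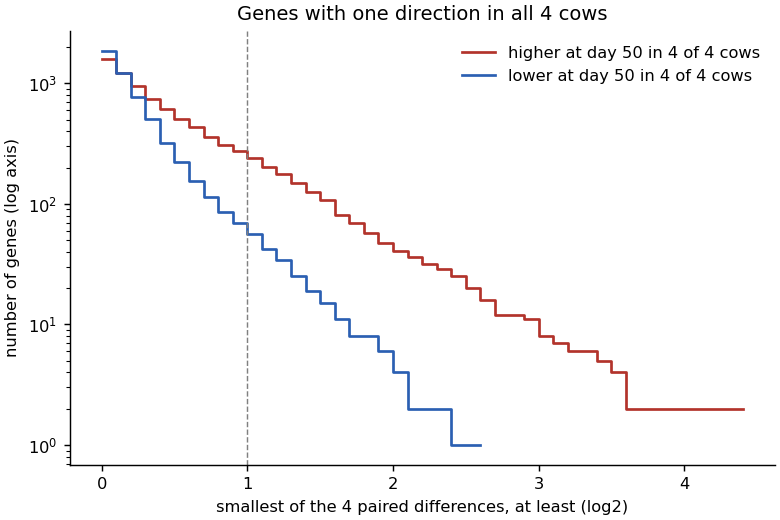
Number of genes (vertical log axis) that differed between day 50 and day 30 in the same direction in all 4 cows, against the smallest of the 4 paired differences required (horizontal axis, log2), with the dashed line at 1. The curve of lower genes starts above that of higher genes, at 1853 against 1580, and lies below it from a smallest difference of 0.1 on, with 56 against 240 genes at 1 and 4 against 41 at 2.

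A gene of prostaglandin breakdown and one of prostaglandin reception were among the 15 genes that ranked highest on the higher and the lower side. HPGD, the dehydrogenase that inactivates prostaglandins, stood 20.3-fold higher at day 50, and PTGFR, the receptor for prostaglandin F2 alpha, stood 25.2-fold lower on the processed signals. With normexp background correction the difference of HPGD was 4.04 and that of PTGFR shrank from -4.66 to -2.23. These genes and LPAR3, a receptor for the lipid lysophosphatidic acid known for its part in embryo implantation in mice, have several probes each. The first 30 of the 60 bases of 2 probes per gene are given, to show that the probes are separate stretches of each transcript. The coordinates are those of the array design on build HGSC Btau_3.1, which places the probes in the order shown at chr8:6726889-6726948 and chr8:6728470-6728529 for HPGD, at chr3:70642266-70642324 and chr3:70579492-70639284 for PTGFR, and at chr3:63014279-63014338 and chr3:63012588-63012647 for LPAR3. The span of the second PTGFR probe is far longer than the probe, so it joins separate genomic stretches. The strand and the place within exons were not worked out.
HPGD probe 1: taatgctcaaagctgtagcttaagctttta
HPGD probe 2: taacactcatcgaggatgatgctttgaatg
PTGFR probe 1: atcattagaccatcagagtaactgaatttc
PTGFR probe 2: ggtcatccagcttctgggtataatgtgtgt
LPAR3 probe 1: gatttcacaaactgtgtagtaagtggatct
LPAR3 probe 2: gaggggagaagaggtgttcggaacggttac

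HPGD had levels of -0.18, -3.27, -2.52 and -2.04 at day 30 and 2.74, 2.48, 1.91 and 2.24 at day 50, in cows 1 to 4. Every day 50 array lay above every day 30 array, as it did for 530 genes (4.01%), while 511 genes lay wholly lower (3.87%). Over probes these shares were 4.09% and 3.56%. The fitted difference was 4.35 ± 0.69 (SE, 4 cows, adjusted p = 0.434), and the second HPGD probe gave 4.63 ± 0.73. PTGFR had levels of -1.84, -0.06, -4.10 and -0.81 at day 30 and -6.18, -2.42, -9.28 and -7.55 at day 50. It was lower in each cow, by at least 2.36, but the groups overlapped, because cow 2 at day 50 lay above cow 3 at day 30. The fitted difference of PTGFR was -4.66 ± 1.19 (SE, adjusted p = 0.434), detected on 2 of 4 day 50 arrays, and the second PTGFR probe gave -2.23 ± 0.84, detected on 1 of 4. The remaining PTGFR probe gave -4.77 ± 1.14, also detected on 1 of 4 day 50 arrays.

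Enzymes that make prostaglandins had smaller differences or a cow of opposite sign. PTGS2, the inducible cyclooxygenase that starts prostaglandin synthesis, had levels of -3.50, -4.03, -4.70 and -1.01 at day 30 and -0.10, -0.88, 1.96 and -1.33 at day 50. It stood higher in cows 1, 2 and 3 and lower by 0.32 in cow 4 (3.22 ± 1.51, SE, adjusted p = 0.542). AKR1B1, an aldo-keto reductase that makes prostaglandin F2 alpha in bovine endometrium, stood 0.74 ± 0.42 higher in 4 of 4 cows. CBR1, a carbonyl reductase that also acts on prostaglandins, stood 0.62 ± 0.28 higher in 4 of 4. Of the 16 measured genes of prostaglandin synthesis and reception, HPGD, AKR1B1 and CBR1 were higher in all 4 cows and PTGFR was lower in all 4, with a list median of 0.47. The shares of all genes were 12% higher in all 4 cows and 14% lower.

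Receptors of oxytocin and of sex steroids did not share a direction. OXTR, the oxytocin receptor, had levels of 2.12, 1.60, 1.37 and 1.27 at day 30 and -3.53, 1.01, -3.72 and 1.15 at day 50. It was lower by 5.65 and 5.09 in cows 1 and 3 and by 0.59 and 0.12 in cows 2 and 4, so the day 50 arrays formed a low and a high pair, and all 4 lay below the day 30 arrays. Its fitted difference was -2.86 ± 1.05 (SE, adjusted p = 0.5). PGR, the progesterone receptor, had levels of -0.90, 0.56, -0.27 and -0.12 at day 30 and -1.48, -1.10, -1.83 and -0.78 at day 50, lower in each cow, with cow 1 at day 30 below cow 4 at day 50. PGR differed by -1.12 ± 0.32 (SE, adjusted p = 0.444).

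ESR1, the oestrogen receptor alpha, differed by -0.66 ± 0.44, lower in 4 of 4 cows but by 0.08 in cow 1. ESR2, the oestrogen receptor beta, had levels of -2.83, -4.96, -4.07 and -7.30 at day 30, with 3 of 4 arrays well above background, and -1.48, -2.34, -2.98 and -2.14 at day 50. It stood 2.56 ± 1.16 higher (SE, adjusted p = 0.534), in 4 of 4 cows and on each of 3 probes, and cow 4 gave the largest difference, 5.16. The ESR2 difference was 1.32 with normexp and 1.70 with array weights. Of 15 measured members of this list, ESR2 and the coactivator NCOA2 were higher in all 4 cows, and PGR, OXTR, ESR1 and the coactivator NCOA3 were lower, with a median of -0.27. The shares of all genes were 12% higher in all 4 cows and 14% lower.

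**Figure D2:**
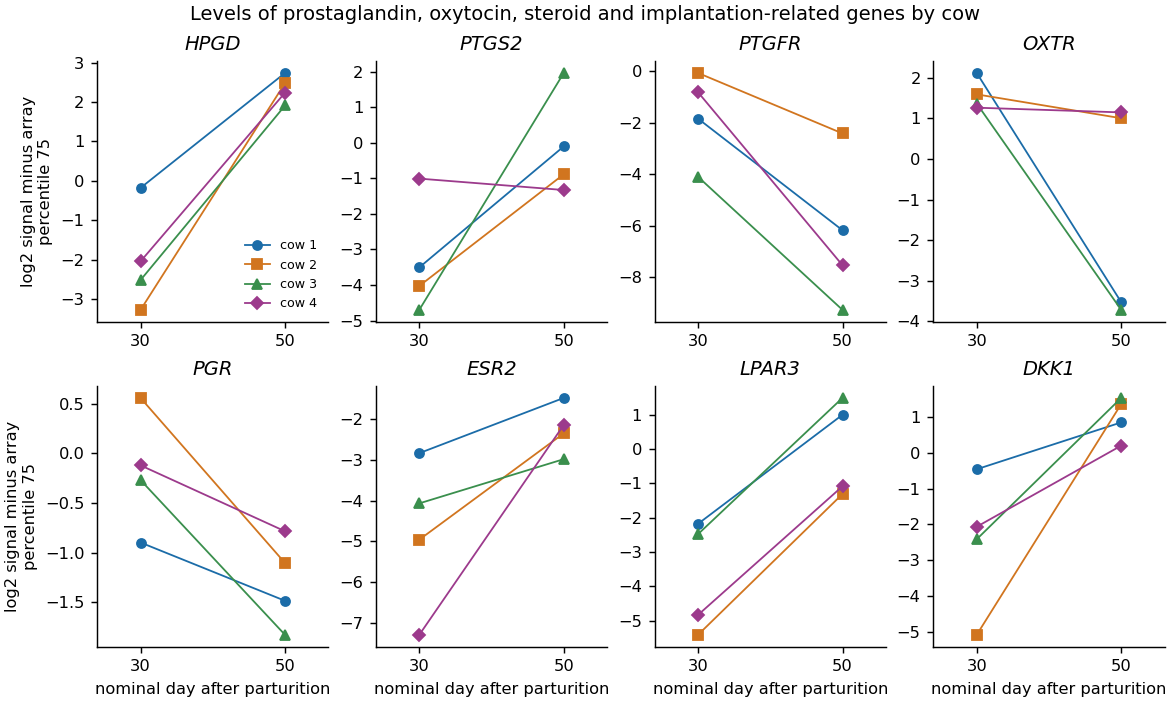
Level of 8 genes (vertical axis, log2 signal minus the array's percentile 75, a scale of its own per panel) at nominal days 30 and 50 (horizontal axis), with a line for each of the 4 cows. HPGD, LPAR3, DKK1 and OXTR do not overlap between the days, PTGFR, PGR and ESR2 overlap but differ in the same direction in all 4 cows, and PTGS2 is higher in 3 of 4 cows.

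LPAR3 had levels of -2.18, -5.41, -2.48 and -4.84 at day 30 and 1.00, -1.31, 1.49 and -1.09 at day 50. The groups did not overlap, and the 4 paired differences lay between 3.18 and 4.10, a range narrower than that of any other gene but SYBU among the 15 genes that ranked highest on the higher side. The fitted difference was 3.75 ± 0.83 (SE, adjusted p = 0.434), and the second LPAR3 probe gave 3.72 ± 0.96, detected on 1 of 4 day 30 arrays. The remaining LPAR3 probe gave a smaller difference, 1.96 ± 0.80, with 0.57 in cow 2 and 0 of 4 day 30 arrays detected.

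The 15 genes that ranked highest on the higher side include HPGD and LPAR3. FMO2, a flavin monooxygenase that oxidises foreign compounds, ranked first. Its levels were -2.65, -6.50, -6.56 and -7.36 at day 30, with 1 of 4 arrays well above background, and 1.74, 1.42, 1.46 and -2.76 at day 50. The smallest of its 4 differences was 4.39, and the groups overlapped because cow 4 at day 50 lay just below cow 1 at day 30. The fitted difference was 6.23 ± 1.66 (SE, adjusted p = 0.434), on each of 3 probes in the same direction, and 3.64 with normexp. MCOLN3, a cation channel of endosomes and lysosomes, ranked second, with levels of -1.60, -4.14, -3.50 and -7.13 at day 30 and 2.70, 1.18, 1.01 and -1.15 at day 50. The MCOLN3 groups did not overlap, and the difference was 5.03 ± 1.34 (SE, adjusted p = 0.434). MEP1B, the beta subunit of the secreted and membrane-bound metalloprotease meprin, had levels of -4.09, -3.16, -2.96 and -6.12 at day 30 and 3.44, 2.10, 2.02 and -2.66 at day 50. It did not overlap either, and cow 4 was the lowest of its group at both times, with a fitted difference of 5.30 ± 1.86 (SE, adjusted p = 0.484).

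SLC27A6, which takes up and activates long-chain fatty acids, stood 5.55 ± 2.08 higher, and BCAT1, a transaminase of branched-chain amino acids, 4.33 ± 1.50. OSGIN1, a gene induced by oxidative stress, stood 3.17 ± 0.96 higher. The day 30 and day 50 arrays did not overlap for any of these 3 genes, and OSGIN1 and BCAT1 were well above background on all 8 arrays. SYBU, which links cargo to kinesin on microtubules, was higher by 2.97 ± 0.78, and SH3RF2, a ubiquitin ligase, by 4.24 ± 1.30, both without overlap. Probes disagreed in size for SH3RF2, whose 3 probes ran from 0.95 to 4.59, and for SLC27A6, from 1.78 to 5.55. PIP, a secreted protein first described as prolactin-induced, was higher by 5.12 ± 2.45, but cow 4 supplied 9.56 of difference against 2.88 to 4.13 in the other 3 cows. SCGN, a calcium-binding protein, and ITGBL1, an integrin-like secreted protein, stood 4.07 ± 1.03 and 3.94 ± 1.08 higher, detected on 1 and 2 of 4 day 30 arrays. KCNMB2, a subunit of a calcium-activated potassium channel, stood 4.05 ± 1.40 higher, with 2 of 4. With normexp the differences of SCGN, ITGBL1, KCNMB2, SH3RF2 and OR5D52P shrank to 1.11, 1.17, 1.76, 2.39 and 0.67. The rank ended with KCNMB2 at a smallest difference of 2.57, and the first gene outside it, SLC16A11, stood at 2.53.

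The remaining gene of the 15, OR5D52P, belongs to the olfactory receptors, a large family of alike genes. Its probe was well above background on 0 of 4 arrays at day 30 and 4 of 4 at day 50, and it stood at least 6.52-fold higher against the dimmest measurable signal. In other probes, assigned to several receptor genes, 14 bases recur. The OR5D52P probe that ranked here is not among the tested probes that hold these bases. A window of 30 bases around them is given for 3 probes, with the shared bases in capitals, at chr3:653564-653985 for the other OR5D52P probe, chr19:24121999-24122058 for OR3A2 and chr4:111678244-111678303 for OR2A61 on build Btau_3.1.
OR5D52P: gttatcCCCATGCTGAACCCagtgatctac
OR3A2: ttatcaatCCCATGCTGAACCCacttatct
OR2A61: ttttcaacCCCATGCTGAACCCgctgatct

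These bases code for a stretch that is conserved across the olfactory receptor family, and the match of these probes to other receptor transcripts was not measured. On the array 8 probes hold the 14 bases and 4 of them passed the detection filter. None of the 4 was detected on any day 30 array and each was detected on 3 or 4 of 4 at day 50, so they passed only through arrays where they were bright, and neither their number nor their direction is read as a result. OR3A2, OR2A61 and this family were singled out after their values were seen.

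PTGFR and RIMS1 led the 15 genes that ranked highest on the lower side. RIMS1, a scaffold of the presynaptic release site, had levels of 3.53, 4.23, 0.30 and 3.28 at day 30 and -0.37, 2.17, -5.05 and -2.09 at day 50. It was lower in each cow, by 2.07 in cow 2 and up to 5.37 in cow 4, and the groups overlapped (-4.17 ± 2.15, SE, adjusted p = 0.568). SCN1A, a voltage-gated sodium channel, had levels of -3.36, -1.81, -1.32 and -2.23 at day 30 and -5.05, -4.82, -5.38 and -4.57 at day 50, without overlap (-2.77 ± 0.79, SE, adjusted p = 0.444). SCG2, a granin of secretory granules, differed by -2.70 ± 1.15, detected on 1 of 4 arrays at day 50. PCDH7, a protocadherin of cell adhesion, had levels of -4.40, -4.14, -4.80 and -4.73 at day 30 and -7.61, -5.98, -8.05 and -7.27 at day 50. The PCDH7 groups did not overlap (-2.71 ± 0.54, SE, adjusted p = 0.434), with 2 of 4 day 50 arrays detected.

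RSPO3, an amplifier of WNT signals, had levels of 2.10, 2.22, -2.38 and 0.94 at day 30 and -1.30, 0.75, -7.53 and -5.66 at day 50. Each cow was lower, with -1.47 in cow 2 and -6.61 to -3.41 in the others, and the groups overlapped (-4.16 ± 1.34, SE, adjusted p = 0.47). CHRDL2, an antagonist of bone morphogenetic proteins, differed by -5.40 ± 2.64, with -1.48 in cow 2 and -9.71 in cow 4. IL17B, a cytokine of the interleukin-17 family, differed by -3.82 ± 1.93 and C1QTNF3, a secreted relative of complement C1q, by -3.00 ± 1.06. CD5L, a protein secreted by macrophages, had levels of -2.14, -0.74, -0.70 and -3.87 at day 30 and -4.58, -3.48, -3.64 and -5.41 at day 50. The 4 paired differences of CD5L lay close together, between -2.94 and -1.54 (-2.41 ± 0.44, SE, adjusted p = 0.434).

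CDC42EP3, an effector of the small GTPase CDC42, differed by -2.12 ± 0.62, and CPNE5, a calcium-dependent membrane-binding protein, by -2.11 ± 0.69. TUBA4A, an alpha tubulin, differed by -1.96 ± 0.59 without overlap, and TDH, named for threonine dehydrogenase, by -2.72 ± 1.06, also without overlap. EEF1A2, the elongation factor of muscle and nerve, differed by -2.29 ± 1.30, detected on 2 of 4 day 50 arrays. RSPO3 closed the 15 at a smallest difference of 1.47 in size, and its relative RSPO1 was the first gene outside, at 1.45. With normexp the differences of SCG2, PCDH7, EEF1A2 and TDH shrank to -0.76, -0.80, -0.87 and -1.33, those of SCN1A, IL17B and RSPO3 to -1.77, -2.26 and -2.59, and that of CHRDL2 to -3.37.

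DKK1, a secreted inhibitor of WNT signals, had levels of -0.46, -5.09, -2.42 and -2.07 at day 30 and 0.85, 1.37, 1.54 and 0.20 at day 50, without overlap. Its difference was 3.50 ± 1.10 (SE, adjusted p = 0.468), and both probes agreed in direction in all 4 cows. DKK1 and the ligand WNT11 were the members higher in all 4 cows among 16 measured uterine developmental transcription factors and WNT signals, and 0 were lower in all 4, a share near the 12% of all genes. WNT11 was dim, detected on 0 of 4 day 30 arrays and 3 of 4 day 50 arrays. PGF, placental growth factor, a relative of vascular endothelial growth factor, had levels of 0.20, -0.96, 0.13 and -1.84 at day 30 and 2.54, 1.25, 3.00 and 1.08 at day 50. The PGF groups did not overlap, and the difference was 2.58 ± 0.54 (SE, adjusted p = 0.434), on 3 of 3 probes. Of 23 measured angiogenesis genes 6 were higher in all 4 cows and FLT4, a receptor for lymphatic growth factors, was lower. The shares of all genes were 12% higher and 14% lower. IGFBP2, a binding protein of insulin-like growth factors, stood 2.58 ± 1.10 higher in 4 of 4 cows, with 1.44 under normexp, and IGFBP7 was lower in all 4 among 13 measured members.

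The mean of the interferon response genes was higher at day 50 in each cow. Of 23 measured members, 16 stood higher in all 4 cows and 0 lower in all 4, where 12% and 14% of all genes did, and 13 had an unadjusted p under 0.05 with a higher level, where 4.98% of all genes did. No member passed after adjustment. The list median was 1.22, the mean of the members was higher by 2.11, 0.53, 1.42 and 0.90 in cows 1 to 4, and without cow 4 the count was 18. ISG15, a ubiquitin-like protein that interferon induces, had levels of 0.28, -0.35, 0.16 and -0.07 at day 30 and 3.90, 0.66, 3.46 and 1.30 at day 50. The groups did not overlap, and cows 1 and 3 lay more than 2 log2 units above cows 2 and 4 at day 50 (2.33 ± 0.87, SE, adjusted p = 0.501).

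MX1, an antiviral GTPase, had levels of 0.54, 0.02, 1.23 and 0.17 at day 30 and 3.21, 1.07, 3.48 and 1.58 at day 50. Cow 2 at day 50 lay below cow 3 at day 30, so the MX1 groups overlapped (1.84 ± 0.51, SE, adjusted p = 0.434). IRF7, the transcription factor that drives interferon genes, had levels of -1.30, -1.59, -0.74 and -1.19 at day 30 and 1.04, -0.56, 1.10 and 0.25 at day 50, without overlap (1.66 ± 0.43, SE, adjusted p = 0.434). IFIH1, a sensor of viral RNA, stood 1.88 ± 0.66 higher in 4 of 4 cows.

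Of 15 measured antigen presentation genes 6 were higher in all 4 cows and 0 lower, where 12% and 14% of all genes were. The median was 0.61, and 0 members had an unadjusted p under 0.05, where 4.98% of all genes were higher with such a p. The 6 were BOLA-DMB and BOLA-DQB of the class II pathway, the peptide transporters TAP1 and TAP2 and the immunoproteasome subunits PSMB8 and PSMB9, and the count was also 6 without cow 4 and 10 without cow 3. The level of the T and NK cell list ran from -0.62 to 0.31 at day 30 and -0.52 to 0.79 at day 50, with 4 of 18 members higher in all 4 cows and 0 lower. The level of the macrophage list ran from -1.32 to 0.38 and from -1.63 to 1.00, with 1 of 15 higher and 0 lower. The defining macrophage markers CSF1R and CD68 differed by 0.42 ± 0.28 and 0.16 ± 0.37, each higher in 2 of 4 cows. The part of these cells in the interferon and antigen presentation results was not tested.

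The mean of the epithelial markers was higher and that of the smooth muscle markers lower in each cow, and no member passed after adjustment. Of 20 measured markers of luminal and glandular epithelium, 14 were higher in all 4 cows and 0 lower, where 12% and 14% of all genes were, and 10 did not overlap between the days (4.01% of all genes lay wholly higher). In limma's test 2 of the 20 had an unadjusted p under 0.05 with a higher level, where 4.98% of all genes did. The keratin KRT7 was lower in cows 1, 2 and 3 and KRT19 in cows 1 and 2, both named after their values were seen. The list median was 1.53, the mean difference was 1.41, 0.70, 0.95 and 3.13 in cows 1 to 4, and without cow 4 the count was also 14. The level of the list ran from -2.28 to 0.34 at day 30 and from 0.67 to 1.29 at day 50. EPCAM, an adhesion molecule of epithelium, had levels of 3.35, 4.08, 4.46 and 0.93 at day 30 and 5.16, 5.26, 5.31 and 3.77 at day 50. Cow 4 was low at both times and made the groups overlap (1.67 ± 1.58, SE, adjusted p = 0.741). CDH1, the epithelial cadherin, had levels of 0.17, -0.09, 0.96 and -0.70 at day 30 and 1.47, 1.19, 1.84 and 1.76 at day 50, without overlap (1.48 ± 0.86, SE, adjusted p = 0.598). CLDN3, a tight junction protein, and ELF3, an epithelial transcription factor, stood 3.03 ± 1.48 and 1.70 ± 0.90 higher, also without overlap. With array weights the differences of EPCAM, CDH1 and ELF3 were 0.99, 0.98 and 1.10.

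Of 15 measured smooth muscle markers 11 were lower in all 4 cows and 0 higher, against 14% and 12% of all genes, with a median of -1.46 and 0 with an unadjusted p under 0.05, and the count was also 11 without cow 4. The mean difference was -1.93, -0.25, -1.25 and -2.04 in cows 1 to 4, so cow 2 differed least, and LMOD1, SMTN, KCNMB1 and CALD1, named after their values were seen, were higher in that cow. DES, the intermediate filament of muscle, had levels of 4.56, 4.58, 2.21 and 4.31 at day 30 and 2.23, 4.19, 0.50 and 1.65 at day 50. The groups overlapped, with cow 2 near its day 30 level and the other cows lower by 1.71 to 2.66 (-1.77 ± 1.13, SE, adjusted p = 0.618). The 4 DES probes ran from -3.00 to 0.03. ACTA2, smooth muscle actin, and TPM2, a muscle tropomyosin, differed by -1.07 ± 0.83 and -1.27 ± 0.84, lower in 4 of 4 cows. The smooth muscle list ran from -0.32 to 1.86 at day 30 and from -1.58 to 1.47 at day 50. The part of epithelium and smooth muscle content of the biopsies in the single-gene differences was not tested.

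**Figure D3:**
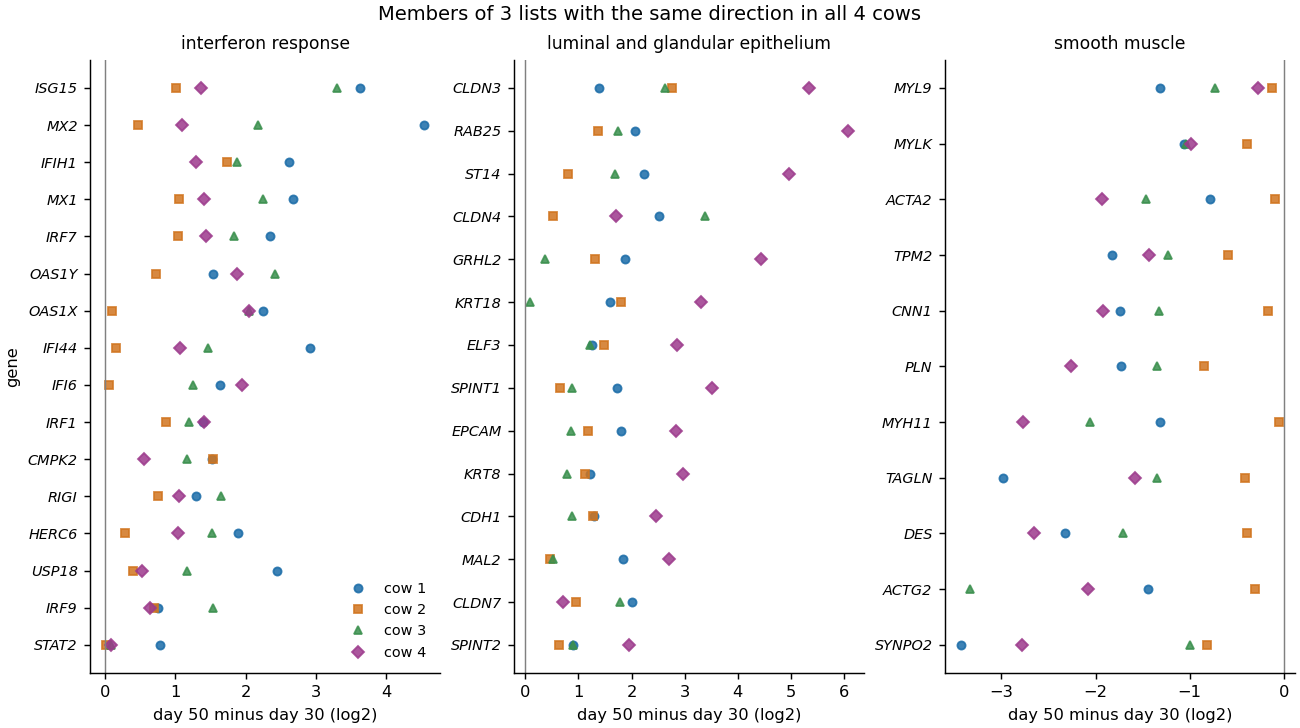
Difference between day 50 and day 30 (horizontal axis, log2) of the members of the interferon response, epithelial and smooth muscle lists that had the same direction in all 4 cows (vertical axis), with 1 point per cow. The panels show 16 interferon and 14 epithelial genes, all to the right of 0, and 11 smooth muscle genes, all to the left, which follows from how they were chosen, and the spread between cows is the thing to read.

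Cell junction and polarity genes, of which 4 are also in the epithelial list, also had many members higher. Of all genes 12% were higher in all 4 cows and 14% lower. Of 24 measured, 11 were higher in all 4 cows and CDH3, placental cadherin, was lower on the brighter of its 2 probes, 7 lay wholly higher (4.01% of all genes), and the median was 0.91. The mean difference of this list was 0.80, 1.09, 0.73 and 1.52 in cows 1 to 4, and its level did not overlap between days, at -1.02 to -0.06 against 0.50 to 0.75. Uterine gland secretions stood between -0.79 and -0.04 at day 30 and between 0.09 and 0.39 at day 50, with 6 of 16 members higher in all 4 cows and LCN2 and CST3 lower. LGALS3BP, a secreted galectin-binding glycoprotein, had levels of 0.64, 0.54, 1.32 and 0.36 at day 30 and 2.13, 1.63, 2.75 and 1.56 at day 50. The paired differences of LGALS3BP ran from 1.09 to 1.49, and the groups did not overlap (1.30 ± 0.47, SE, adjusted p = 0.494).

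Ciliated and dividing cells showed cows that ran against the others. Of 18 measured ciliated epithelium markers 0 had the same direction in all 4 cows, and the mean difference was 2.55, 1.26 and 3.18 in cows 1, 2 and 4 and -2.14 in cow 3. Without cow 3, left out because it ran against the others, 15 of the 18 were higher in the other 3 cows. The share of all genes higher in those 3 cows is not given, so this count is not read as a result. At day 30 DNAH9, DNAH11, DNAI1, DNAI2 and RSPH4A were detected on 1 of 4 arrays and FOXJ1 on 2. CCDC40, CFAP47, TEKT2, TPPP3 and TTLL9 were detected on all 4. The differences thus rest in part on values near the floor. The list median was 1.015, and it fell as low as 0.172 under alternatives that kept all cows. FOXJ1, the master regulator of motile cilia, stood at -4.49 in cow 3 at day 30 against -7.69, -6.08 and -7.56 in cows 1, 2 and 4. Cow 3 at day 30 also had the highest level of the whole list among the 8 arrays, 2.12. At day 50 the FOXJ1 levels were -5.16, -6.37, -6.97 and -5.53, lowest in cow 3, and cow 2 was lower by 0.29. CCDC39, a gene of ciliary motility, was lower by 1.95 in cow 3 and higher by 0.43 to 1.81 in the other 3.

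Among cell cycle genes cow 4 ran against the other 3. The mean difference of the 27 measured members was -1.11, -1.96 and -2.50 in cows 1, 2 and 3 and 2.23 in cow 4. In all of cows 1 to 3, 21 members were lower, but the share of all genes lower in those 3 cows is not given. This count is therefore not read as a result. With cow 4 only MCM6 and PCNA were lower in 4 of 4, and CCNB1 was higher, among the 27. CCNB2, a mitotic cyclin, had levels of -3.75, -2.67, -0.70 and -5.48 at day 30 and -5.07, -5.88, -4.37 and -1.53 at day 50. Cow 4 was the lowest array of the first group and the highest of the second. CCNB1, its close relative, had levels of 0.67, 0.31, 0.01 and -5.07 at day 30 and 1.87, 1.22, 0.54 and 0.81 at day 50, higher in each cow on both of its probes and unlike CCNB2 in cows 1 to 3. With array weights, which ran from 0.28 for the day 30 array of cow 4 to 7.80 for the day 50 array of cow 1 among these 8 arrays, CCNB1 differed by 1.14 and CCNB2 by -2.05. MCM6, of the replicative helicase, and PCNA, the sliding clamp of DNA polymerase, differed by -0.83 ± 0.26 and -0.47 ± 0.21 (SE, adjusted p = 0.468 and 0.529).

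**Figure D4:**
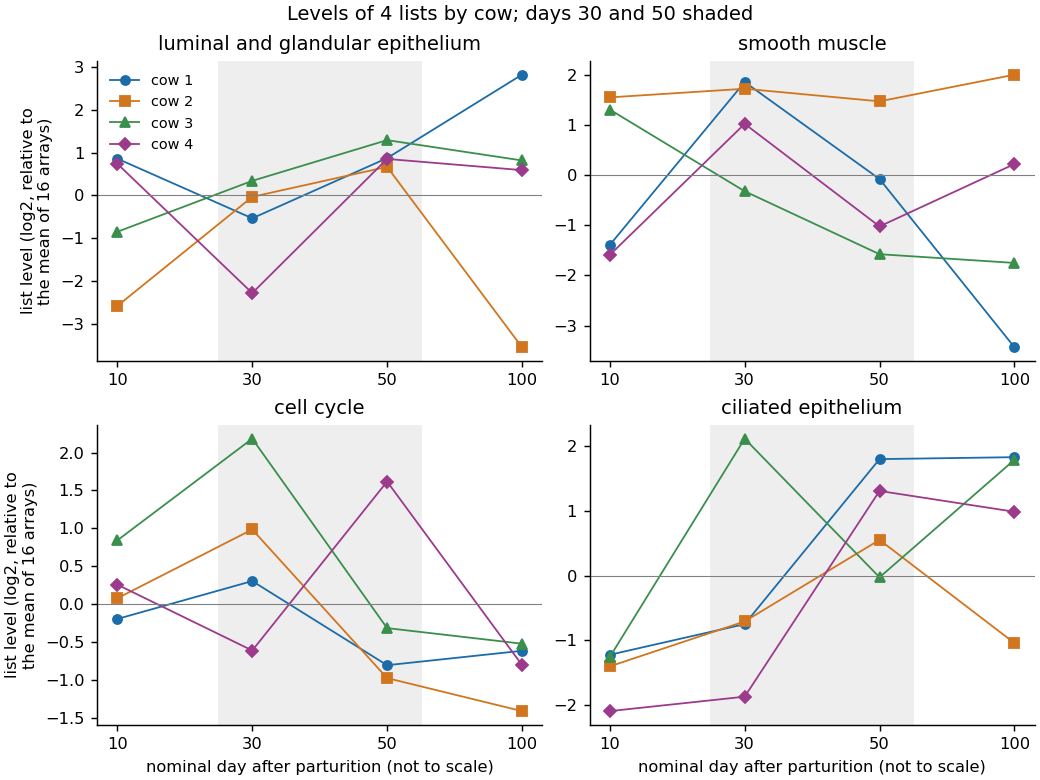
Level of 4 gene lists (vertical axis, mean over members of the log2 level relative to the mean of the 16 arrays) against nominal day (horizontal axis, not to scale), a line per cow, with days 30 and 50 shaded. Between the shaded days the epithelial list is higher and the smooth muscle list lower in 4 of 4 cows, the cell cycle list is higher in cow 4 and lower in the other 3, and the ciliated list is lower in cow 3 and higher in the other 3.

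The mean of the mast cell markers was higher in each cow. Of 7 measured, CPA3, HPGDS, TPSB2 and KIT were higher in all 4 cows and 0 lower, where 12% and 14% of all genes were. FCER1A, HDC and GATA2 had no shared direction, and no member passed after adjustment. The median was 1.06, and the mean difference was 1.49, 1.05, 0.40 and 1.78 in cows 1 to 4. CPA3, the mast cell carboxypeptidase, had levels of -6.71, -6.85, -3.99 and -3.37 at day 30 and -2.88, -4.68, -2.50 and -1.76 at day 50. It was dim, detected on 2 of 4 day 30 arrays, and the groups overlapped (2.27 ± 0.75, SE, adjusted p = 0.47). TPSB2, a mast cell tryptase that the array design names TPSB1, stood 1.59 ± 0.55 higher, and HPGDS, which makes prostaglandin D2 in these cells, 1.94 ± 1.03. With normexp CPA3 gave 0.77 and HPGDS 0.30. The level of the mast cell list ran from -1.26 to 0.48 at day 30 and from -0.21 to 1.62 at day 50.

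Matrix genes were mixed. THBS2, a thrombospondin of the matrix, had levels of 1.32, 1.62, 1.26 and 2.89 at day 30 and -0.58, 0.56, -0.28 and 0.45 at day 50, without overlap (-1.74 ± 0.63, SE, adjusted p = 0.494). THBS2, THBS1 and COL14A1 were the members of 24 collagens and matrix proteins lower in all 4 cows, and 0 were higher, where 14% and 12% of all genes were. COL1A1, a chain of type I collagen, differed by -0.13 ± 0.24, with the day 50 spot of cow 4 left out as nonuniform. PAMR1, a secreted protein with a peptidase domain, had levels of 1.93, 0.58, 1.72 and 3.77 at day 30 and -0.74, -0.30, -1.39 and -0.01 at day 50, also without overlap (-2.61 ± 0.60, SE, adjusted p = 0.434). ADAM12, a membrane metalloprotease, stood 3.32 ± 1.20 higher, and cow 4 gave a difference of 7.41, and the fit gave 1.61 with normexp. Of 26 matrix proteases and inhibitors 3 were higher in all 4 cows and 4 lower, near the shares of all genes, and the gelatinase MMP2 differed by -0.14 ± 0.49. The stromal fibroblast list stood at 0.02 to 0.48 at day 30 and -0.25 to -0.06 at day 50, with DPT, THY1 and FAP of its 13 members lower in all 4 cows.

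Transport and metabolism genes gave single members more than lists. SLC1A1, a glutamate transporter, and SLC2A1, the glucose transporter GLUT1, stood 2.56 ± 1.38 and 1.30 ± 0.51 higher in 4 of 4 cows, the latter without overlap. SLC1A5, a glutamine transporter, differed by -1.14 ± 0.45, lower in 4 of 4. Of 30 transporters 6 were higher in all 4 cows and 3 lower (median 0.04), where 12% and 14% of all genes were. SDR16C5, a retinol dehydrogenase, had levels of 1.05, -2.49, -0.90 and -3.58 at day 30 and 3.14, 2.66, 2.28 and -0.59 at day 50. It stood 3.35 ± 1.21 higher, in each cow by at least 2.09, and FABP4, a fatty acid carrier, differed by -3.10 ± 1.34, lower in 4 of 4, and by -2.04 with normexp. Cholesterol synthesis genes had a mean difference of 0.76, 1.14 and 1.00 in cows 1, 3 and 4 and -0.69 in cow 2. Among the 24 measured members, 2 were higher in all 4 cows and 1 was lower, where 12% and 14% of all genes were. In cows 1, 3 and 4, set apart because cow 2 ran the other way, 18 members were higher. The share of all genes in those 3 cows is not given, so this count is not read as a result.

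Lists of inflammation had medians near 0. The median of the cytokines changed sign under at least 1 alternative processing, and those of complement and antimicrobial genes only when a cow was left out. The defensin TAP, an antimicrobial peptide of epithelium, had levels of -3.98, -1.40, -6.56 and -0.12 at day 30 and -6.68, -7.64, -9.14 and -6.50 at day 50. It was lower in each cow, detected on 3 of 4 arrays and then 1 of 4, and the groups just overlapped (-4.47 ± 1.42, SE, adjusted p = 0.468). With normexp the difference of TAP was -1.996. The cytokines IL1B and CXCL8 differed by 0.22 ± 0.79 and -0.65 ± 1.09. Of 35 cytokines and chemokines 2 were higher in all 4 cows and 1 lower, of 22 complement genes 0 and 1, of 22 antimicrobial and acute phase genes 2 and 2, and of 9 neutrophil markers 1 and 0. The medians of these lists lay between -0.05 and 0.22, and of all genes 12% were higher in all 4 cows and 14% lower.

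MYC and some chaperones stood lower in each cow. MYC, a growth-promoting transcription factor, had levels of 2.06, 2.84, 1.92 and 3.82 at day 30 and 0.42, 1.08, 0.58 and 1.20 at day 50, without overlap (-1.84 ± 0.51, SE, adjusted p = 0.444). The other immediate early genes split, with 4 of 22 higher in all 4 cows and 4 lower, MYC included. Of 25 chaperones of the endoplasmic reticulum and heat shock 6 were lower in all 4 cows and 0 higher, with small differences. Of all genes 14% were lower in all 4 cows and 12% higher. HSP90AA1, a cytosolic chaperone, differed by -0.48 ± 0.17 without overlap, and HSPA5, the main chaperone of the endoplasmic reticulum, by -0.23 ± 0.20.

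For the remaining lists the counts are to be set beside the 12% of all genes higher in all 4 cows and the 14% lower. They are not read as results. Of 25 lysosomal genes 4 were higher in all 4 cows and 2, the proteases CTSB and CTSD, lower, with a median of -0.01. Among markers of other cells, 1 of 15 endothelial, 1 of 10 B and plasma cell and 1 of 6 squamous markers were higher in all 4 cows, and 1 squamous marker, KRT5, was lower. For the 6 erythroid and 3 trophoblast markers measured the count was 0 in both directions, and the medians of these 5 cell type lists lay between 0.14 and 0.35.

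**Figure D5:**
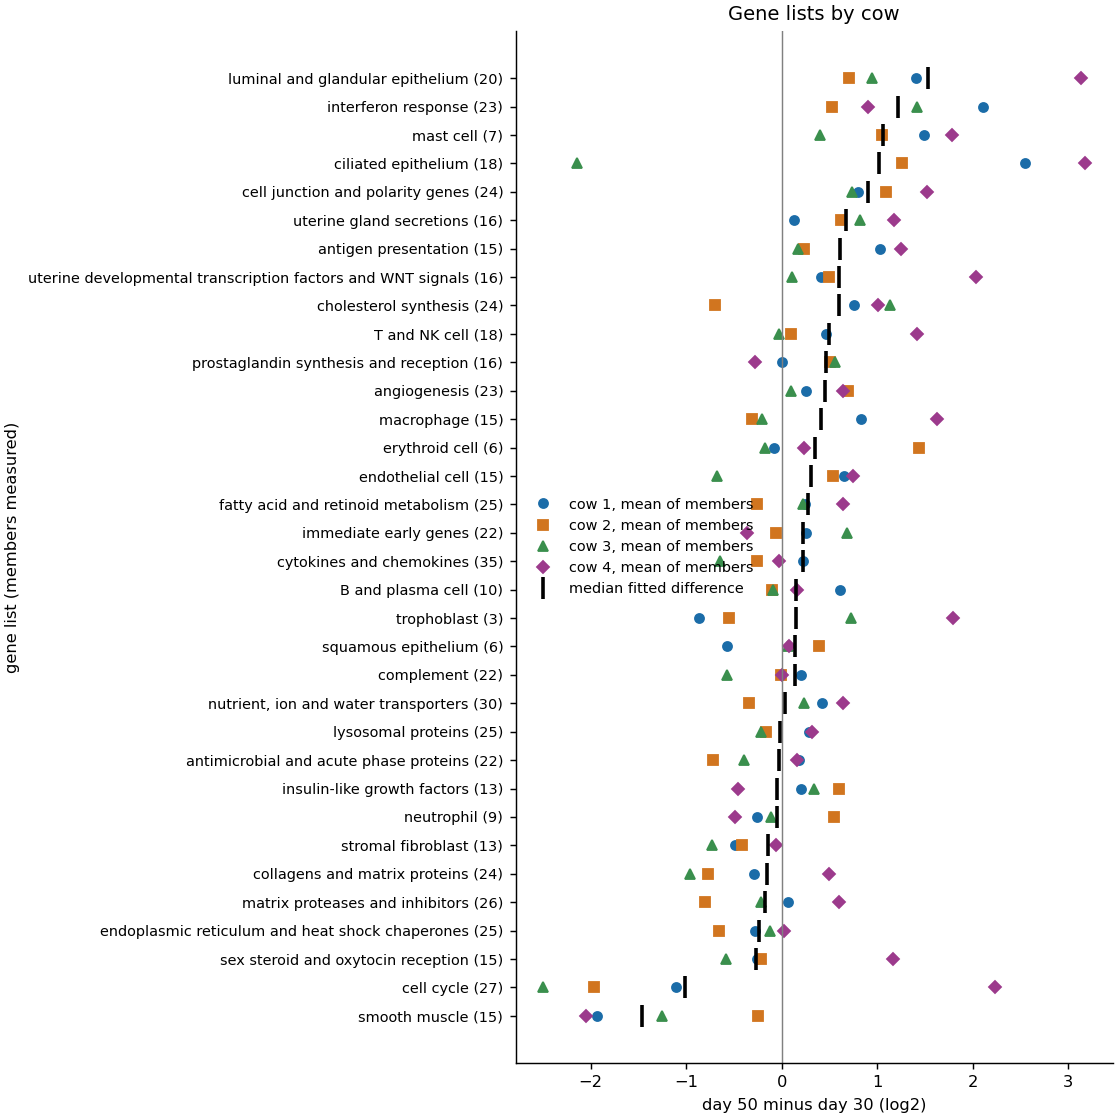
Mean difference between day 50 and day 30 over the measured members of each of 34 gene lists (horizontal axis, log2), with a point per cow and a black bar at the list's median fitted difference. Lists are ordered by that median, from the epithelial list at 1.53 to the smooth muscle list at -1.46. Cow 4 stands far to the right in the cell cycle list at 2.23, and cow 3 far to the left in the ciliated list at -2.14.

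The arrays of the other days show where these genes stood before and after. The mean level of HPGD was -2.01 at day 10, 2.34 at day 50 and 1.42 at day 100. PTGFR stood at -3.07, -6.36 and -6.57 at these times, and PGF at -1.13, 1.97 and 2.11. PTGS2, with a mean of -3.31 at day 30, stood at 0.74 at day 10 and 1.38 at day 100. ISG15 stood at 1.33 at day 10, 0.005 at day 30, 2.33 at day 50 and 2.09 at day 100, and MX1 at 1.84, 0.49, 2.34 and 2.32. For ISG15, MX1, IRF7 and PTGS2 the day 30 mean was the lowest of the 4 times. Such means hide a spread between cows. At day 100 the interferon response list stood at 2.65 in cow 3 and at 0.03, -1.10 and -0.04 in cows 1, 2 and 4. In cow 2 this list was not lowest at day 30, with -1.111 at day 10, -1.095 at day 30 and -1.099 at day 100. PAMR1 was highest at day 10, at 4.76, and lower at each later time, with means of 2.00, -0.61 and -0.98.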

How the data were processed

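Per the labels, RNA of 4 cows at 4 times was hybridised to 16 single-dye arrays. The deposited intensity values are, per the file headers, background-subtracted and detrended within each array by Agilent Feature Extraction 11.5.1.1 (the submitters' processing notes name 10.5.1.1), beside other columns, flags (0 or 1) for detection above background and for nonuniform spots. The authors also deposited a log2 value table, which correlated with probe-centred scanner values at 0.9998 to 1 and served as an alternative. Its scale, centring and direction are known only through this match.

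Signals of the 43803 spots that are not controls were put on the log2 scale, less each array's percentile 75. Nonuniform spots were left out, 4 to 80 per array of days 30 and 50, no spot was saturated, and spots of a probe were averaged. Probes detected (well above background) on 4 or more of the 16 arrays were tested with limma 3.58.1 (R 4.3.3), with time and cow as terms on all 16 arrays, the contrast day 50 minus day 30, two-sided, Benjamini-Hochberg adjustment and a threshold of 0.05. The cow term pairs the biopsies of an animal, as the labels state. Deviations from the time means correlated with a median of 0.19 (-0.02 to 0.27) within a cow for days 30 and 50, and -0.03 between cows. In simulated data on 32891 probes for day 50 minus day 30, 10.45%, 58.21% and 80.3% of probes changed by 1, 2 and 4 on the log2 scale were called. So were 5 unchanged probes. The changed probes were picked at random, and noise was drawn independently for each probe and array. Errors shared by the probes of an array were left out, so these shares do not give the power in the real data. The number of arrays limits the precision.

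A gene is represented by its probe with the highest mean signal. Of 43653 probes, 33595 carried a symbol, 22205 through a RefSeq accession, 1476 through a gene ID, 9542 by symbol and 372 by synonym (ARS-UCD2.0 table), and the others kept the name in the files. Named genes were the 15 in each direction with the largest smallest-of-4 paired difference, well above background on all 4 arrays of the higher group and without a LOC number, and of each list the first 2 measured and up to 3 per direction with a shared sign. Values are given for the lists with the most to show, and counts for most others. The 34 lists were 21 of pathways and 13 of cell types. Lists, rule and comparison were chosen with earlier results of these data known. "At least" folds set the bright group's mean against, per array, the higher of the dimmest signal well above background and the probe's own.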

Additional observations from a re-analysis of the deposited data

Results flagged for a closer look

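In 18 of 228 groups of 4 arrays, over the genes and lists described, a single array lay far from the other 3 by Dixon's gap test, where chance gives about 1 in 20. The day 50 array of cow 4 was low for FMO2 at -2.76 (others 1.42 to 1.74), KCNMB2 at -4.36 (-1.66 to -1.42), TDH at -8.44 (-5.36 to -4.86), SLC1A1 at 1.56 (3.66 to 3.75), EPCAM at 3.77 (5.16 to 5.31), CLDN3 at -0.80 (-0.13 to -0.01) and the insulin-like growth factor list at -0.57 (0.10 to 0.16). The day 30 array of cow 4 was low for CCNB1 at -5.07 (0.01 to 0.67) and the fatty acid and retinoid list at -0.52 (-0.02 to 0.05), and high for the immediate early list at -0.22 (-0.73 to -0.67). The day 30 array of cow 3 was low for FABP4 at -4.78 (-0.84 to -0.22) and DES at 2.21 (4.31 to 4.58) and high for the lysosomal list at 0.16 (-0.54 to -0.46), and its day 50 array was high for SLC2A1 at 4.02 (2.50 to 2.68). The day 30 array of cow 1 was high for OR5D52P at -6.13 (-8.56 to -8.23), which was dim on every day 30 array, and low for TUBA4A at 1.28 (2.38 to 2.60). In cow 2, IGFBP2 was low at day 50, at -5.10 (-1.67 to -1.18), and the erythroid list was high at day 30, at -0.092 (-0.69 to -0.64).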

How the results depend on the processing

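Without the cow term (no replicate block), which removes the pairing, limma called 0 probes higher and 0 lower, with 1213 and 1022 at an unadjusted p under 0.05. The counts were also 0 and 0 with the 8 arrays alone, normexp, quantile scaling, median centring, no filter, the filter on 4 of the 8 arrays, the deposited value table, and without each cow in turn (0 to 0). Without the day 100 arrays 9 probes were called higher and 0 lower, among them 2 of OR5D52P and 1 each of OR3A2, OR2A61 and MCOLN3, and 7 of the 9 were not well above background on any day 30 array. Array weights, whose estimation did not reach its convergence tolerance and which gave the day 50 array of cow 1 a weight of 7.80, called 271 higher and 137 lower. These include 15 of the 80 genes tracked here, HPGD, PTGFR, LPAR3, FMO2, PGF, MX1 and IRF7 among them. The cause was not tested.

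Consistent probes numbered 535 higher and 131 lower. Normexp gave 214 and 56, a smallest difference of 0.5 gave 1232 and 554, one of 2 gave 86 and 9, and leaving out a cow gave 698 to 1066 higher and 186 to 444 lower. Those past 1.5 times were 923 and 444 without cow 2, 1066 and 242 without cow 3, and 404 lower without cow 4. In counts added after seeing the data, leaving out each cow gave 16 to 18 interferon genes higher, 14 to 17 epithelial, 11 to 14 junction and 6 to 10 antigen presentation genes higher (10 without cow 3), and 11 to 14 smooth muscle genes lower. None of these counts can fall below its value for all cows, so the lower end of each range was fixed in advance.

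Of 1120 values of the 80 genes under 14 alternatives, 9 changed sign, in 4 genes near 0. With normexp FOXJ1 gave -0.21 and CCDC39 -0.14, with array weights CD68 gave -0.012, and in the deposited table COL1A1 gave 0.016. Leaving out a cow gave -0.25 to 1.42 for FOXJ1 (-0.25 without cow 1, -0.08 without cow 4), -0.11 to 1.15 for CCDC39 (-0.11 without cow 1) and -0.11 to 0.51 for CD68 (-0.04 without cow 1, -0.11 without cow 4). Median centring and normexp moved the median of all genes to -0.15 and -0.10. List medians stayed between 1.01 and 1.61 for interferon response, 0.97 and 1.73 for epithelium, 0.48 and 1.02 for junctions and -1.78 and -1.14 for smooth muscle, and the cell cycle median was -2.20 without cow 4. Dim genes are limited by signal over background, since their low side rests on values near the floor.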
